A study of Mus musculus with 6 samples.

Results

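Among the circular RNAs (circRNAs) found in mouse liver, those classed as exonic and listed with 2 exons are described here. They numbered 2025 of 7469 circRNAs (27.1%) and 31.6% of the 6406 exonic circRNAs, and they held 11290 of 36218 back-spliced reads (31.2%). Members were chosen by the deposited class and exon number alone, and no measured level entered the choice. Liver RNA came from male C57BL/6J mice at 12 weeks of age, 3 fed a high-fat diet (HFD) and 3 fed a low-fat diet (LFD), with 1 library per mouse. Both groups were wild-type inbred mice that differed in diet. The study compared the diets to find liver circRNAs that differ in diet-induced obesity.

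A circRNA forms when the splicing machinery joins the end of an exon to the start of the same exon or of an exon further upstream, a reaction known as back-splicing. A circle of 2 exons contains an ordinary splice junction, from which the inner intron is removed, and a back-splice junction that closes the ring. Long introns on both sides of the circle, and base pairing between them, are known to favour back-splicing. Having no free ends, circles resist exonucleases and can outlast the messenger RNA (mRNA) of their host gene.

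The back-splice junction is the only stretch of a circle that its linear mRNA lacks, and it is the sequence by which every read here was counted. Junctions are shown for the 7 most read circles whose exons are wholly coding and for the 5 with wholly coding exons among the circles that passed the diet thresholds described further on. Each line runs 5′ to 3′ on the strand of the gene and gives the last 20 bases of the second exon in lower case and the first 20 bases of the first exon in capitals, so that the back-splice lies where the case changes. The sequences were read from the transcripts of GENCODE M21, whose coordinates are those of GRCm38.
Asph, circRNA1006, chr4:9635901-9639347, minus strand: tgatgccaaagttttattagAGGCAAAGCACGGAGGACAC
Atxn2, mmu_circ_0012070, chr5:121802081-121803080, plus strand: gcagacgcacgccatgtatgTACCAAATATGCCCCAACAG
Rad52, mmu_circ_0001516, chr6:119920110-119921028, plus strand: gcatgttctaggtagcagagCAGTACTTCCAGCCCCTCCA
Rabep1, mmu_circ_0000281, chr11:70874746-70884968, plus strand: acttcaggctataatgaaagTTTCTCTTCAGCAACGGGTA
Adk, mmu_circ_0005111, chr14:21234833-21240571, plus strand: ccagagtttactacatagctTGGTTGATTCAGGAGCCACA
Scp2, circRNA1053, chr4:108055439-108063988, minus strand: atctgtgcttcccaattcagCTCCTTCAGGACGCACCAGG
Ogdh, mmu_circ_0000231, chr11:6313788-6317080, plus strand: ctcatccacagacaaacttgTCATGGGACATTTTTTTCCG
Pon1, circRNA1627, chr6:5175743-5181565, minus strand: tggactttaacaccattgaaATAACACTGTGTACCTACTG
Rbm33, circRNA4519, chr5:28361946-28368313, plus strand: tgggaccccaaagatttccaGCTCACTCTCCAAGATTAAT
Nup210, mmu_circ_0013600, chr6:91015824-91016081, minus strand: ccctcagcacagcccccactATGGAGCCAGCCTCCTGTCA
Cpeb3, circRNA4377, chr19:37126332-37139221, minus strand: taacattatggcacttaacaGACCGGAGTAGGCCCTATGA
Cd84, circRNA5507, chr1:171872697-171873439, plus strand: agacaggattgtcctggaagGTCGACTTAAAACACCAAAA
The Pon1 junction is printed as its entry lists it, 1 base short of the annotated exon end.

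The most read circle of the class, the Asph circle, is also shown whole because it is short. It is 219 nt long and joins exon 2 (150 nt) to exon 3 (69 nt) of the isoform named in the file. Its first and last 10 bases, which meet at the back-splice, are in capitals.
Asph, circRNA1006, whole circle: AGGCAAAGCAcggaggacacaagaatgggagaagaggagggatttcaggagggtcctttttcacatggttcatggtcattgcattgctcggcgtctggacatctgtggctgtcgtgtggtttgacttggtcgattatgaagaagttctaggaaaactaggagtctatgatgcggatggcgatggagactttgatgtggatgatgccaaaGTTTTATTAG

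Back-spliced reads, the reads that cross the junction, numbered between 5384 and 6590 per library, and a count of 3 reads, taken as the smallest that can be told from none, was worth between 0.688 and 0.83 SRPBM (the read count multiplied by a factor that corrects for how many reads of that mouse were mapped). Intervals and this floor cover counting error only. HFD 1 and LFD 3 stood apart from the other 4 libraries in base quality in the study's sequencing summary, with 1 library of each diet in that pair. The labels' processing notes name mm9, whereas 99.0% of the two-exon circles had both ends on 2 neighbouring exons of the same isoform in GRCm38, so positions are given as GRCm38. Hepatocyte marker genes hosted two-exon circles for 5 of 7 markers (27 reads), against 2 of 6 Kupffer cell markers (9 reads), 1 of 6 stellate cell markers (1 read), 1 of 5 sinusoidal endothelial markers (1 read) and 0 of 5 cholangiocyte markers. For 1 of the 5 hepatocyte markers, Ttr, the entry (circRNA1631, 6 reads) is listed on the strand opposite to the gene and matched no exons of it. Circles report only on genes that form them, so that this is a narrow check of the tissue.

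The members came from 1548 host genes, of which 1202 had a single two-exon circle and 346 had 2 or more. A name from a circRNA database was given to 654 members (32.3%), and these held 53.0% of the reads. Chromosome 2 held 173 (8.54%), chromosome 5 held 157 and chromosome 1 held 144, and 1053 lay on the plus strand against 972 on the minus strand. The ends of 1832 members (90.5%) fell exactly on annotated exon ends. Another 159 started 1 base inside an exon, and 214 members (10.6%, with 11.5% of the reads) had a listed partner that differed by 1 bp at the start. Counting each such pair once left 1922 two-exon circles.

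The genomic span, from the first to the last base of the circle with the inner intron included, had a median of 2074 bp (quartiles 974 and 4755 bp, range 141 to 177397 bp). Most of that span was intron. The summed length of both exons had a median of 275 nt (quartiles 222 and 335 nt), and the inner intron had a median of 1758 bp. The first and the second exon were nearly equal in size, with medians of 132 and 130 nt. Single-exon circles had a median span of 306 bp and a median exon length of 312 nt (quartiles 194 and 637 nt). Two-exon circles were thus longer on the genome, and their median exon length was shorter. That order was not general. Among circles in 1 library the medians were 273 nt for two-exon and 237 nt for single-exon circles, and in 5 or 6 libraries 286 and 422 nt. Three-exon circles had medians of 5427 bp and 370 nt.

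**Figure D1:**
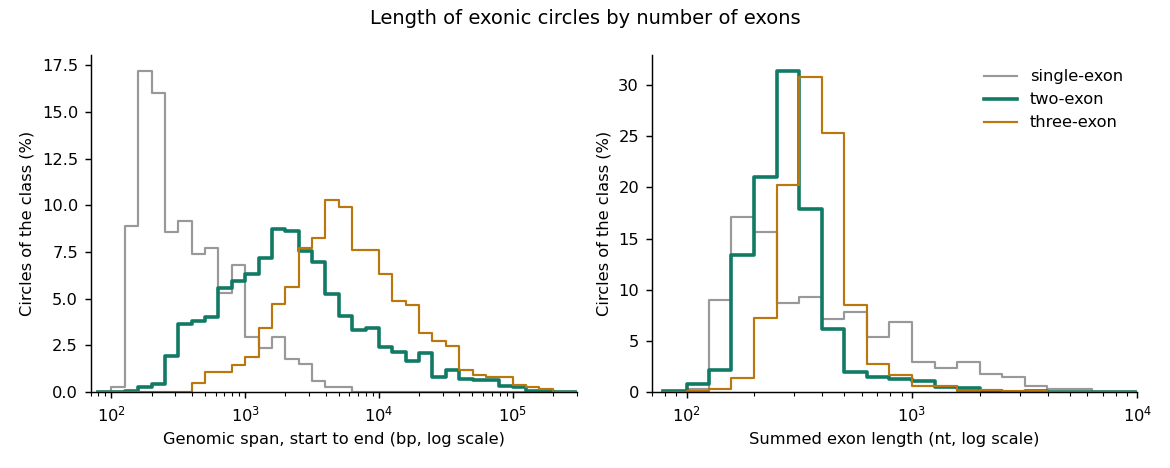
Distribution of genomic span (bp, left) and summed exon length (nt, right), both on log axes, for single-exon, two-exon and three-exon circles, as the share of each class in bins of equal log width. Two-exon circles spread widely in span around a median of 2074 bp but gather closely in exon length around 275 nt.

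The span separated members by their inner intron rather than by their exons. The longest spans among circles with reads in at least 2 libraries belonged to Magi1, a scaffold protein of cell junctions, with 127615 bp, to Atxn1, a transcriptional regulator, with 104248 bp, and to Foxp1, a forkhead transcription factor, with 97581 bp. Each of them joined exons 2 and 3, and their exon lengths were only 237, 250 and 266 nt. Magi1 and Foxp1 had 3 and 2 reads in all, whereas the Atxn1 circle (circRNA29) had 8, 0 and 3 reads in HFD 1, 2 and 3 and 0, 10 and 5 reads in LFD 1, 2 and 3, with 3 more reads of HFD 2 under a partner entry 1 bp away. At the other end lay a circle of 169 bp listed under Gm49325 (mmu_circ_0002433), where Ube2g2, a ubiquitin-conjugating enzyme of protein degradation at the endoplasmic reticulum, is annotated as well, then Fgd6 with 186 bp, and Hpn, a serine protease of the hepatocyte surface, with 228 bp. Their inner introns were 87, 87 and 84 bp. The Hpn circle (circRNA722, 144 nt) had 6, 7 and 11 reads on the HFD and 6, 9 and 9 on the LFD, and the diets overlapped.

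Two-exon circles began at exon 2 of the listed isoform in 522 cases (26.0%), at exon 3 in 317 (15.8%) and at exon 4 in 187 (9.33%). Only 6 (0.299%) began at exon 1, which has no splice acceptor. Both exons were wholly coding in 1547 circles (77.2%), partly coding in 257 (12.8%) and without coding sequence in 200 (9.98%). The exon length was a multiple of 3 in 762. At the back-splice, the second exon ended in AG in 56.4% of 1832 circles with exact ends, and the first exon ended in AG at the inner junction in 59.0%. The first exon began with G at the back-splice in 46.8%, and the second began with G at the inner junction in 47.7%. These circles were chosen for ends on annotated exon ends, and the bases were read from annotated transcripts. A likeness of the back-splice to the ordinary junction was therefore set by that choice and says nothing about the circles.

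Introns next to the circles were longer than the introns inside them. The intron before a two-exon circle had a median of 5559 bp and the intron after it a median of 4403 bp, against 1758 bp for the inner intron. The flanking introns of single-exon circles were longer still, with medians of 10296 and 9995 bp, and those of three-exon circles had medians of 6945 and 5293 bp. These values describe gene structure and were compared without a test, since circles of the same gene share introns.

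Most two-exon circles were seen in 1 mouse only, while a small set found in every mouse held a large part of the reads. Reads in 1 library only were found for 1354 members (66.9%), which held 20.6% of the reads, and 789 members had a single read in all. In contrast, 69 members (3.41%) had reads in all 6 libraries and held 38.2% of the reads. Between these lay 306 members in 2 libraries, 142 in 3, 87 in 4 and 67 in 5. Counting entries 1 bp apart once raised the number in all 6 libraries to 81. The share in 1 library was 63.6% for single-exon and 67.5% for three-exon circles, and the share in 5 or 6 libraries was 6.72% for two-exon, 6.21% for single-exon and 5.4% for three-exon circles.

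**Figure D2:**
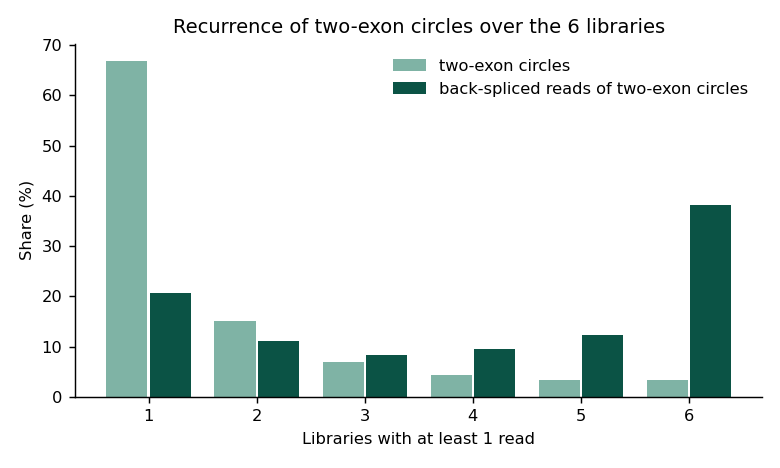
Share of two-exon circles (light bars) and of their back-spliced reads (dark bars) by the number of libraries, of 6, with at least 1 read. Circles in 1 library made up 66.9% of the class with 20.6% of its reads, and circles in all 6 made up 3.41% with 38.2%.

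Members seen in more libraries lay between longer introns. The median intron before the circle was 4841 bp for members in 1 library, 6812 bp for those in 2 to 4 and 11881 bp for those in 5 or 6. The median intron after it was 3644, 6370 and 8679 bp in the same order. The pattern was not particular to two-exon circles, since the upstream medians for 1 library and for 5 or 6 were 7257 and 28211 bp in single-exon and 5776 and 16334 bp in three-exon circles. The inner intron had medians of 1680, 2008 and 1831 bp and the exon length 273, 278 and 286 nt. Where the upstream intron was under 1000 bp, 3.94% of members were found in 5 or 6 libraries, and where it was 30000 bp or more, 9.63% were.

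Position in the gene moved with this pattern. Members that began at exon 2 had longer upstream introns (median 15832 bp) than those that began later (4020 bp), and they were more frequent among members in 5 or 6 libraries (33.6%) than among members in 1 (23.5%). The same shares differed more in single-exon circles (66.7% against 32.2%) and in three-exon circles (56.0% against 25.3%). Among members that began at exon 2, the upstream median was 14165 bp for 1 library (315 circles) and 23784 bp for 5 or 6 (45 circles). Among those that began later it was 3752 bp (1025 circles) and 5256 bp (88 circles). The downstream medians were longer in the same way within both sets, 5293 and 13866 bp for the first and 3298 and 5330 bp for the second. Within each of the 6 libraries, members with at least 5 reads had longer upstream introns (medians 8239 to 16246 bp) than members with 1 or 2 reads (5398 to 6424 bp), and also longer downstream introns (7769 to 10443 bp against 4234 to 5016 bp). Detection in more libraries follows the level of a circle, so the number of libraries and the read count are not separate measures here.

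**Figure D3:**
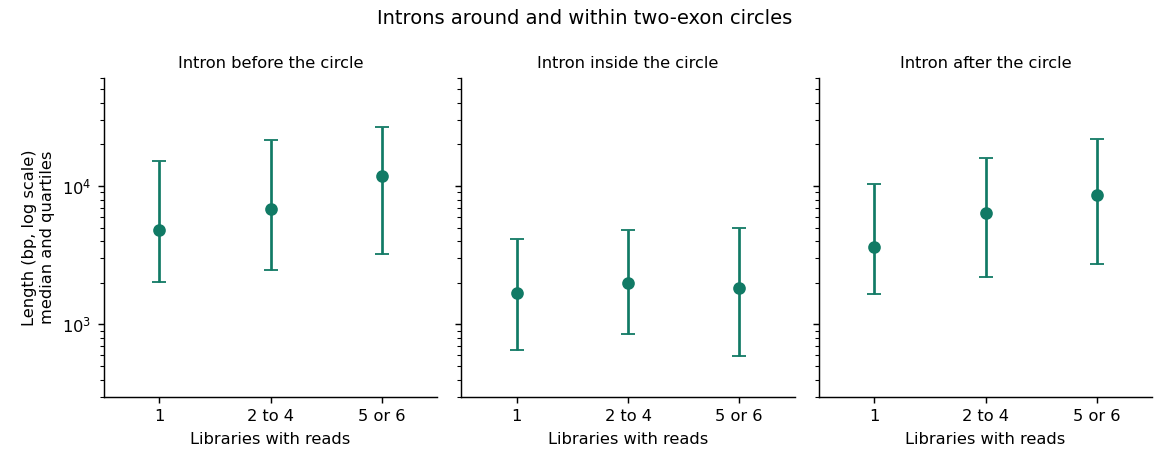
Length of the intron before, inside and after two-exon circles (bp, log axis) by the number of libraries with reads. Points are medians and bars reach the quartiles. Both flanking introns lengthen from 1 library to 5 or 6, while the inner intron stays between 1680 and 2008 bp.

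The 12 most read two-exon circles held 2253 of the 11290 reads of the class, and they differed in how evenly the mice carried them. The Asph circle had 64, 50 and 71 reads in HFD 1, 2 and 3 and 39, 68 and 75 reads in LFD 1, 2 and 3. Asph encodes aspartate beta-hydroxylase of the endoplasmic reticulum, and the diets overlapped (15.5 ± 3.25 against 16.3 ± 5.17 SRPBM, SD, n = 3). The circle of Rad52, which acts in homologous recombination, joined exons 10 and 11 and had 38, 47 and 52 reads against 34, 44 and 38. It had the smallest spread of all members in 6 libraries, a coefficient of variation of 18.7%. The circle of Adk, the kinase that turns adenosine into AMP, had 28, 29 and 30 reads against 16, 30 and 32, with LFD 1 the lowest library.

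Some of the most read circles split the libraries in a way that was not the diet. The circle of Atxn2, an RNA-binding protein of stress granules, joined exons 19 and 20 (318 nt) and had 19, 64 and 51 reads on the HFD and 58, 61 and 16 on the LFD. HFD 1 and LFD 3, the pair that stood apart in base quality, were its lowest libraries. The reverse held for Tlk1, a kinase of chromatin assembly, with 53, 35 and 30 reads against 28, 23 and 54, and for Alg12, a mannosyltransferase of N-glycan assembly, with 30, 14 and 12 reads against 13, 15 and 33. Of the 69 members with reads in all 6 libraries, 11 had both HFD 1 and LFD 3 above the other 4 libraries in SRPBM and 7 had both below, 18 in all. Of the 176 circRNAs of any class with reads in all 6 libraries, 25.6% had this pair apart from the other 4, so that the members stood near the background. The diets did not overlap for 6 of the 69 members, against 10.8% of the 176 circRNAs, and 4.95% of all circRNAs tested had diets that did not overlap. A part of base quality in these values was not tested.

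Rabep1, whose product assists the fusion of early endosomes, had a circle of 333 nt from exons 2 and 3 with 24, 55 and 64 reads on the HFD and 42, 19 and 28 on the LFD. Its log2 fold change of HFD over LFD (log2FC) was 0.51 with a standard error of 0.38 (unadjusted p = 0.172 by the edgeR quasi-likelihood test), the smallest p of the 12. The circle of Scp2, a sterol carrier and peroxisomal thiolase gene, had 21, 22 and 24 reads against 35, 20 and 30. The circle of Ogdh, the first subunit of the 2-oxoglutarate dehydrogenase complex, had 25, 21 and 18 reads against 36, 27 and 16. In both, the highest library was LFD 1 and the diets overlapped.

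The other circles among the 12 were those of Gm49325, Ghr and Ttc39c. The Gm49325 circle had 34, 16 and 12 reads against 26, 10 and 24. The circle of Ghr, the growth hormone receptor, had 13, 25 and 20 reads against 13, 17 and 17, and its listed end lay 189 bases inside the last exon of a short annotated isoform. The Ttc39c circle had 26, 15 and 12 reads against 16, 0 and 36, the only one of the 12 missing from a library. Across the 12, log2FC lay between -0.495 and 0.514 with standard errors of 0.285 to 0.599, and 0 of 12 had an unadjusted p under 0.05. Whole coding exons made up 8 of the 12, and 6 were a multiple of 3 in length.

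**Figure D4:**
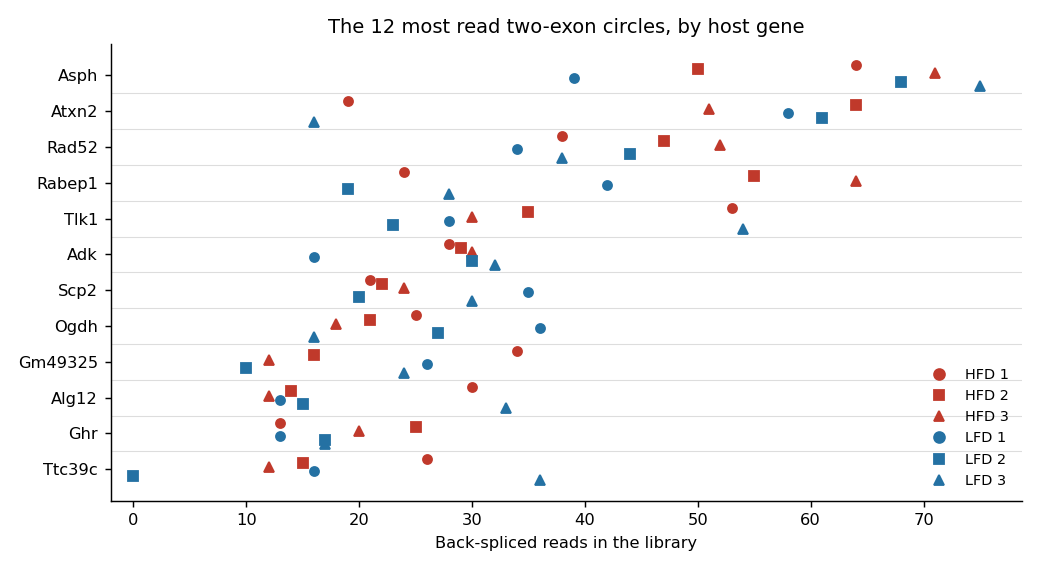
Back-spliced reads in each library for the 12 most read two-exon circles, labelled by host gene, with the HFD in red, the LFD in blue and the marker shape giving the replicate number. Atxn2 is lowest and Tlk1 highest in HFD 1 and LFD 3, and every circle shown has overlapping diets.

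A few host genes gave several two-exon circles, usually with 1 that outweighed the others. Ncor1, a nuclear receptor co-repressor, had 6 such circles from 6 exon pairs with 25 reads together, of which mmu_circ_0003216 (exons 2 and 3) held 14. That circle had 0, 6 and 5 reads on the HFD and 0, 2 and 1 on the LFD. Atxn2 had 5 listed circles with 281 reads, and mmu_circ_0012070 held 95.7% of them. Mtus1, a microtubule-associated tumour suppressor gene, had 5 with 48 reads, and 62.5% were of mmu_circ_0014820. That circle includes an exon of 2227 nt and was 2423 nt long, far above the class median of 275 nt. Dennd5b, a Rab exchange factor gene, had 5 with 36 reads, and circRNA895 held 63.9%. Mcc and Itpr2, a calcium release channel of the endoplasmic reticulum, also had 5 each but only 12 and 10 reads, with 4 of the 5 circles of each in a single library. With entries 1 bp apart counted once, Mtus1 had 3 circles and Atxn2, Dennd5b and Mcc had 4 each, while Ncor1 kept 6 and Itpr2 kept 5.

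Two-exon circles were about as numerous in both diets. HFD 1, 2 and 3 had 623, 558 and 562 of them, and LFD 1, 2 and 3 had 557, 517 and 672. The means were 581 ± 36.4 and 582 ± 80.5 (SD, n = 3), a difference of -1.0 (two-sided exact permutation test over 20 arrangements, p = 1). Two-exon circles made up 29.24%, 27.31% and 30.49% of the circRNAs detected on the HFD and 31.79%, 28.87% and 32.11% on the LFD, with means of 29.01% ± 1.6 and 30.92% ± 1.79 (SD, n = 3). The difference of -1.91 percentage points had p = 0.3 by the exact permutation test, and the diets overlapped. With 3 mice per diet that test cannot give a p under 0.1.

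The share of back-spliced reads in two-exon circles was lower on the HFD in every mouse. It was 30.43%, 28.94% and 30.86% in HFD 1, 2 and 3 and 32.02%, 31.21% and 33.82% in LFD 1, 2 and 3. The exact (Clopper-Pearson) 95% interval of HFD 3 (29.69% to 32.04%) overlapped that of LFD 2 (29.99% to 32.45%). The means were 30.08% ± 1.01 and 32.35% ± 1.34 (SD, n = 3), with no overlap between the diets and p = 0.1, the smallest that an exact permutation test of 3 against 3 allows. With exonic reads as the denominator the difference was -1.8 points (33.3% ± 2.07 against 35.1% ± 2.33, exact permutation test, p = 0.4), and with HFD 1 and LFD 3 left out it was -1.72 points. In whole liver, fewer cells of a type and less RNA per cell cannot be told apart.

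Within libraries, two-exon circles had about as many reads each as their neighbours in exon number. A detected two-exon circle had 3.135, 3.418 and 3.297 reads on average in HFD 1, 2 and 3 and 3.095, 3.338 and 3.165 in LFD 1, 2 and 3. The mean difference from single-exon circles was -0.0746 reads (SD 0.0646, n = 6 libraries), lower in 5 of 6 (exact sign-flip permutation test, p = 0.0625). From three-exon circles it was -0.128 reads (SD 0.278, n = 6 libraries, exact permutation test, p = 0.312). Without the 10 most read of each class the first difference became 0.596 reads higher in two-exon circles in 6 of 6 libraries (exact permutation test, p = 0.0312, the smallest possible). Those 10 are a larger part of the 338 single-exon circles than of the 2025 two-exon circles. Their removal therefore lowers the single-exon mean more, and the change cannot show what the first comparison rested on.

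Few two-exon circles differed by diet, and none after correction. Of the 2025 members, 671 had reads in at least 2 libraries and were tested with edgeR, and the other 1354 were not. An unadjusted p under 0.05 with an absolute log2FC of at least 1 was reached by 8 members (1.19%). Of the 2041 circRNAs tested, 2.35% reached both, and the difference in share was not tested. The shares were 2.54% and 2.83% without LFD 3, and 0.356% and 1.3% without HFD 1. After Benjamini-Hochberg adjustment over all circRNAs tested, 0 members passed 0.05 and the lowest adjusted p of a member was 0.702. DESeq2 called 2 members (0.539% of all tested), and edgeR called 1 without HFD 2 (1.18% of all tested) and 14 without LFD 3 (2.83%). With the replicate number as a block, edgeR called 0 members (0.49% of all tested). Without HFD 1 edgeR called 2 members (1.3% of all tested), and 0 of the 8 were among them. The 8 are therefore given by their reads.

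The 3 members called higher on the HFD, against 1.22% of all circRNAs tested, were found in no LFD library. The circle of Pon1, an antioxidant esterase that the liver secretes on high-density lipoprotein, joined exons 5 and 6 (208 nt) and had 11, 5 and 0 reads on the HFD. It was absent from HFD 3, so that the diets overlapped at 0, and the HFD mean was at least 1.57-fold higher than 3 reads per library would give in the LFD group (unadjusted p = 0.0113, edgeR). A partner entry 1 bp away had 1 read in LFD 1, and with both summed the log2FC was 3.45 (unadjusted p = 0.0349). The circle of Pum2, a Pumilio protein that represses target mRNAs, joined exons 2 and 3 (178 nt) and had 5, 3 and 5 reads on the HFD and 0, 0 and 0 on the LFD (at least 1.34-fold higher, unadjusted p = 0.0242 by edgeR).

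The third was the circle of Atxn7, a subunit of the SAGA chromatin complex, with 4, 5 and 3 reads on the HFD and none on the LFD (at least 1.24-fold higher, unadjusted p = 0.0308 by edgeR). Its call rested on a 1 bp difference between entries. The partner mmu_circ_0005064, also of 2 exons, had 6 reads in LFD 1, and the sum of both had a log2FC of 0.76 (unadjusted p = 0.566).

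The 5 members called lower, against 1.13% of all tested, were found in no HFD library and had 8 or 9 reads each. The circle of Rbm33, an RNA-binding protein, had 1, 8 and 0 reads in LFD 1, 2 and 3, so that 1 library held nearly all (unadjusted p = 0.0395). The circle of Nup210, a membrane protein of the nuclear pore, came from exons 38 and 39 of 40 and had 0, 5 and 4 reads (unadjusted p = 0.0417). The circle of Cpeb3, a regulator of mRNA translation, had 4, 4 and 0 reads (unadjusted p = 0.0465), but its partner circRNA1780 had 6, 0 and 5 reads on the HFD and 0, 0 and 10 on the LFD, and the sum of both gave a log2FC of -0.82 (unadjusted p = 0.409).

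The remaining calls were a circle listed under Gm21992 and that of Cd84. The first (circRNA4903) lies where Rbm4, a splicing regulator, is also annotated and had 3, 3 and 2 reads on the LFD (unadjusted p = 0.048). It was the only one of the 5 with reads in every LFD library. The circle of Cd84, a receptor of the SLAM family on leukocytes, had 0, 5 and 3 reads on the LFD (unadjusted p = 0.04998). Circles of any class from the 6 Kupffer cell markers had 2, 0 and 1 reads on the HFD and 2, 3 and 2 on the LFD, all from Adgre1 and Vsig4, and their part in the Cd84 value was not tested. For these 5 circles no fold is given, since both diets averaged no more than 3 reads per library.

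In 34 of the 671 members tested (5.07%) every SRPBM value of one diet lay above every value of the other, against 4.95% of all circRNAs tested, so that the members stood at the background. Of these, 19 were higher on the HFD and 15 lower, against 3.14% and 1.81% of all tested. Presence followed diet completely in 16: 10 members had reads in all 3 HFD and no LFD libraries (1.37% of all circRNAs tested did), and 6 the reverse (0.98% of all). In all, 547 members tested had reads in both diets, 67 on the HFD only (11.5% of all circRNAs tested) and 57 on the LFD only (9.41%). These shares lie near those of the members. The median log2FC of the members was -0.10 and that of all circRNAs tested -0.08.

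The 69 members with reads in every library had between 11 and 367 reads each. A circle missing from one diet, as all 8 called members were, cannot be among them, so that the choice itself leaves out the widest differences. Their coefficient of variation over the 6 libraries had a median of 47.5% and ran from 18.7% (Rad52) to 106% (Acbd5, a peroxisomal acyl-CoA binding protein, with 18, 2 and 1 reads against 2, 5 and 5). An unadjusted p under 0.05 was reached by 0 of the 69, and 63 had a log2FC within 1 of 0. The lowest p was that of Acaca, the acetyl-CoA carboxylase that commits carbon to fatty acid synthesis. Its circle (circRNA224, chr11:84193079-84195687, exons 2 and 3, 297 nt) had 10, 10 and 14 reads on the HFD and 19, 23 and 17 on the LFD. All HFD mice were below all LFD mice, 2.87 ± 0.784 against 5.3 ± 0.965 SRPBM (SD, n = 3), with a log2FC of -0.94 (SE 0.64, unadjusted p = 0.142, adjusted p = 0.702 by edgeR).

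Besides Acaca, 5 of these 69 had diets that did not overlap in SRPBM. Higher on the HFD were the circle of Gsk3b, a kinase that restrains glycogen synthesis, with 3, 7 and 4 reads against 2, 2 and 2, that of Man2a1, a Golgi mannosidase, with 7, 5 and 7 against 1, 4 and 3, and that of Rabgap1l, a Rab GTPase activator, with 13, 13 and 11 against 7, 10 and 6. Lower were the circle of Kansl1, a subunit of a histone acetyltransferase complex, with 3, 6 and 1 reads against 6, 9 and 8, and that of Mertk, a receptor by which macrophages take up dying cells, with 7, 8 and 1 against 8, 8 and 9. In read counts the diets met at 6 for Kansl1 and at 8 for Mertk, so that their gaps in SRPBM came from the library factors alone. The unadjusted p of the 5 circles ran from 0.2329 (Kansl1) to 0.5233 (Rabgap1l) by edgeR, and none passed a threshold.

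The spread over mice differed widely among these 69. Besides Rad52, Adk and Asph, the smallest coefficients of variation were those of Wwc2 (21.6%), with 6, 7 and 6 reads on the HFD and 7, 9 and 6 on the LFD, and of Bbs9, a subunit of the ciliary BBSome, with 11, 10 and 5 against 6, 8 and 9. Besides Acbd5, the largest were those of Tox, a high-mobility-group protein, with 3, 23 and 3 reads against 6, 6 and 4, of Fam120a, an RNA-binding protein, with 4, 1 and 5 against 3, 4 and 15, of Tcf25 with 13, 5 and 1 against 14, 1 and 4, and of Dym with 10, 4 and 1 against 1, 1 and 7. In each of these 5, 1 or 2 libraries held most of the reads and the diets overlapped.

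When the reads of all two-exon circles of a gene were summed, 9 of 699 host entries passed the same thresholds (1.29%), against 2.28% of the 2065 entries tested, 4 of them higher on the HFD (1.4% of all tested) and 5 lower (0.872%), and 0 passed after adjustment (lowest adjusted p = 0.779, edgeR). With each library left out, between 3 (without HFD 2, 1.67% of all entries) and 15 (without LFD 1, 2.23%) were called. With HFD 1 and LFD 3 both left out, 5 were called (2.03%), and 0 of the 9 were among them. Pon1, Nup210 and Cd84 were among the 9 with the reads given above, and Pum2 with 5, 4 and 5 reads on the HFD over 2 circles and none on the LFD. The 3 other circles of Pon1 had 6, 2 and 2 reads on the HFD and 3, 4 and 3 on the LFD. Med13l, a subunit of the Mediator kinase module, had 0 reads on the HFD and 2, 7 and 3 on the LFD over 3 two-exon circles (at least 1.44-fold lower, unadjusted p = 0.0105). Its other circle had 35, 9 and 13 reads on the HFD and 15, 11 and 50 on the LFD. Dpyd, which degrades pyrimidines, had 4, 2 and 3 reads on the HFD and none on the LFD (unadjusted p = 0.0415), while its 16 other circles together had reads in every library (8, 21 and 31 against 18, 11 and 10).

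Cnot4, a ubiquitin ligase tied to the CCR4-NOT deadenylase, had 2, 7 and 5 reads against 1, 0 and 0. The ratio of HFD to LFD was 12.7 with a counting interval of 1.93 to 536 (unadjusted p = 0.0485). Tpr, a protein of the nuclear basket, had 0, 0 and 2 reads against 2, 11 and 3, a ratio of 0.113 with a counting interval of 0.0126 to 0.481 (unadjusted p = 0.0425). Baiap2l1, an actin regulator, had no reads on the HFD and 3, 1 and 4 on the LFD (unadjusted p = 0.0423).

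Of 8 lists of host genes, that of fatty acid and lipid metabolism had the widest gap in SRPBM between diets. From its 47 genes, 17 hosted 28 two-exon circles, which had 41, 42 and 47 reads on the HFD and 83, 70 and 85 on the LFD. In SRPBM the sum was 10.9 ± 1.62 against 21.3 ± 1.67 (SD, n = 3), with every HFD mouse below every LFD mouse. Of the 11 entries tested, 0 were called and 0 had a log2FC above 0, with a median log2FC of -1.7, whereas 45.5% of all circRNAs tested had a log2FC above 0 and their median was -0.08. Some of these entries share a host gene, as for Scp2 and Elovl5, and all were read in the same mice, so that they are not independent. The genes were chosen with earlier results of these data known, and the sum was not tested.

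Scp2 and Acaca, already described, held most of these reads. Without them the remaining 24 circles together had 10, 9 and 9 reads on the HFD and 28, 26 and 37 on the LFD (2.33 ± 0.0725 against 8.14 ± 1.41 SRPBM). The circle of Mlxipl, the carbohydrate-responsive transcription factor ChREBP, joined exons 6 and 7 (283 nt) across an inner intron of 85 bp and had 3, 4 and 0 reads against 11, 2 and 8 (log2FC -1.70, SE 1.22, unadjusted p = 0.162). The circle of Elovl5, an elongase of polyunsaturated fatty acids, was listed as 2 entries 1 bp apart. The larger entry had 4, 1 and 0 reads against 0, 6 and 13 and the smaller 0, 0 and 2 against 2, 0 and 0.

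Acly, which makes cytosolic acetyl-CoA from citrate, gave a circle with 1, 0 and 0 reads against 0, 4 and 0. Abca1, the cholesterol efflux pump, gave one with no reads on the HFD and 0, 1 and 3 on the LFD. The phospholipase gene Pnpla8 (2, 0 and 4 against 0, 5 and 2, with 3 reads of LFD 1 under a partner entry) and the phosphatidate phosphatase gene Lpin2 (0, 3 and 0 against 2, 0 and 1) had overlapping diets and log2FC of -0.31 and -0.19. A second Scp2 circle, from exons 11 and 12, had 1 read in each LFD library only. None of them passed the thresholds.

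The same host genes also gave 106 circles of other classes, and their sum was also lower in every HFD mouse. They had 104, 121 and 96 reads on the HFD and 119, 152 and 143 on the LFD (26.8 ± 3.57 against 37.2 ± 5.21 SRPBM, no overlap). Of the 33 tested, 11 had a log2FC above 0 and the median was -0.191. Whether the two-exon circles differed more than these was not tested.

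**Figure D5:**
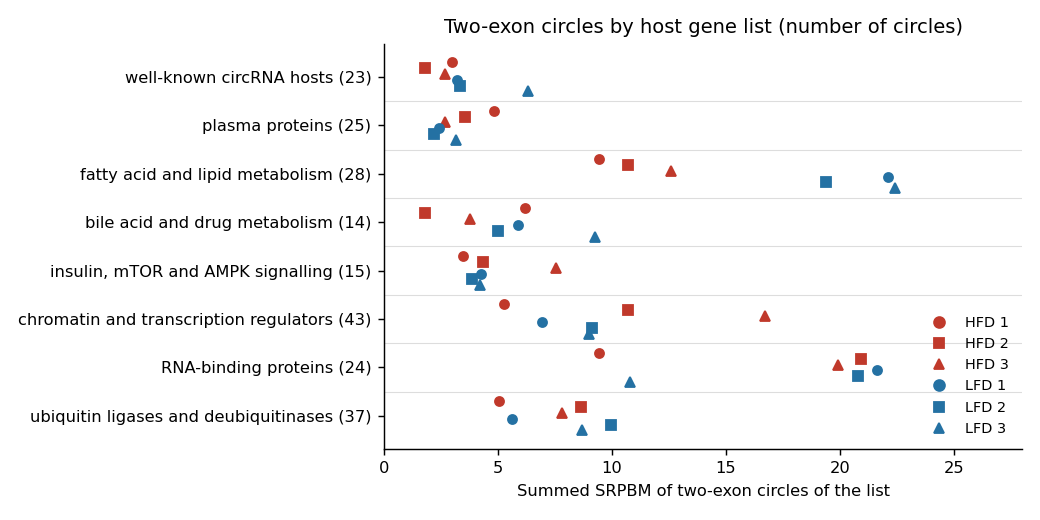
Summed SRPBM of the two-exon circles of each host gene list in every library, with the HFD in red, the LFD in blue, the marker shape giving the replicate number and the number of circles in brackets. Fatty acid and lipid metabolism is the list with the widest gap between diets, 9.41 to 12.6 SRPBM on the HFD and 19.4 to 22.4 on the LFD.

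Of the other 7 lists, 6 had overlapping diets. Well-known circRNA hosts, genes whose circles recur in many tissues, gave only 23 two-exon circles with 78 reads and none in 5 or 6 libraries. Their sum was 2.48 ± 0.626 SRPBM on the HFD and 4.28 ± 1.77 on the LFD with no overlap. It was 3.2, 3.32 and 6.33 SRPBM in LFD 1, 2 and 3, so that LFD 3 stood highest. Of the 9 entries tested, 0 were called, 2 had a log2FC above 0 and the median was -0.977. The most read circle of this list was that of Nrip1, a nuclear receptor cofactor, from non-coding exons 2 and 3. It had 3, 0 and 0 reads against 2, 0 and 10. Chromatin and transcription regulators gave 43 circles, 0 of 19 tested were called and the median log2FC was 0.521. Their reads were 23, 42 and 62 on the HFD and 26, 33 and 34 on the LFD. The leading circle, of the histone methyltransferase gene Kmt2a (exons 19 and 20), had 5, 12 and 9 reads against 4, 12 and 6. The paralogous acetyltransferase genes Crebbp and Ep300 followed, with 4, 2 and 9 reads against 5, 1 and 1 and with 1, 2 and 2 against 2, 2 and 5. The diets overlapped in all 3.

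RNA-binding proteins tied to circle formation or splicing gave 24 circles, of which 1 of 8 tested was called, Pum2, as already described, against 2.35% of all circRNAs tested. Their sum, 41, 82 and 74 reads on the HFD and 81, 75 and 41 on the LFD, mostly repeated the Atxn2 circle. Insulin, mTOR and AMPK signalling gave 15 circles with 0 of 7 called, led by Prkag2, a regulatory subunit of AMPK, with 5, 0 and 12 reads against 5, 8 and 3. A partner entry 1 bp away held 8 reads of HFD 2, and with both summed the reads were 5, 8 and 12 against 5, 8 and 3 and the log2FC turned from -0.05 to 0.47. Ubiquitin ligases and deubiquitinases gave 37 with 0 of 16 called and a median log2FC of 0.04.

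Bile acid and drug metabolism gave 14 circles with 0 of 7 called. Gphn, which makes the molybdenum cofactor, led it with 9, 0 and 0 reads against 4, 4 and 19, and Abcc2, the canalicular conjugate pump, followed with 10, 0 and 0 against 8, 4 and 2. A partner of the Abcc2 circle held 6 reads of HFD 3, and the sum turned its log2FC from -0.62 to 0.05. Plasma proteins of the hepatocyte, among the most abundant mRNAs of liver, gave 25 circles, the opposite-strand entry under Ttr included, but only 74 reads, with 0 of 6 called and 19 of the 25 in a single library. Their leading circle, of the protease inhibitor gene Mug1, had 0, 7 and 0 reads against 0, 4 and 0, and with 3 reads of a partner entry in LFD 3 summed its log2FC turned from 0.55 to -0.18. The albumin gene gave a circle (circRNA1778) with 6 reads in HFD 1 alone, whose listed start lay 160 bases inside an exon.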

How the data were processed

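Liver RNA of 3 HFD and 3 LFD mice was sequenced after ribosomal RNA depletion, and libraries were grouped by their titles. The study's methods also name RNase R, which digests linear RNA, and the labels do not. The authors trimmed reads with Cutadapt, used Bowtie2 and TopHat2 for mapping and TopHat-Fusion for junctions, and took circRNA calls from CIRI and CIRCExplorer2, and the processing notes give Cutadapt 1.9, TopHat2 2.0.4 and mm9. The authors deposited raw counts of back-spliced reads per circRNA and library. The deposited SRPBM signal is the count times 1 factor per library. Some circles are split over 2 entries that differ by 1 bp at an end, which lowers the counts of each.

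Two-exon circles are entries of class circRNA with an exon count of 2. Exon ranks, coding parts and sequences came from the isoform each entry names in GENCODE M21, and flanking introns from the authors' table. Every circRNA read in 2 libraries or more entered 1 fit of the counts with the edgeR 4.0.16 quasi-likelihood test (TMM, R 4.3.3), common dispersion 1.167, and p-values were adjusted over the whole table. A circle was called where the log2 fold change was 1 or more in size and p, before adjustment, was under 0.05. Host entries summed two-exon and other circles separately. Values per library were compared by two-sided exact permutation tests. Where a diet had no reads, folds were taken against 3 reads per library. The script was tested on simulated data. Alternatives were DESeq2 1.42.0, the edgeR exact test, limma 3.58.1 on log2(SRPBM + 0.5), no TMM, other filters, summed partner entries, a replicate block, thinning to the smallest library and omission of libraries. Leaving out HFD 1 and LFD 3 for the values per library was added after the data were seen. Other steps ran in Python 3.11.15 (SciPy 1.17.1, NumPy 2.4.6, pandas 2.3.3), and plots came from matplotlib 3.10.9.

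The naming rule covered the 12 most read members, all called members, the leading circles (up to 3) of each of 8 host gene lists, the 3 shortest and 3 longest spans, the 5 smallest and 5 largest coefficients of variation among members in 6 libraries, and the hosts with most circles, with a tie at 5. A few circles under this rule are not reported here. Called hosts, circles in 6 libraries whose diets did not overlap and the lesser circles of the lipid list were picked with their values in view. The rule for members uses no measured level, but the class, the lists and the markers were chosen for study with earlier results of these data known. With 1 library per mouse, p-values measure the spread between mice and library preparation together.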

Additional observations from a re-analysis of the deposited data

How the results depend on the processing

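The difference in the number of two-exon circles, HFD minus LFD, had no fixed direction. It was -1.0 as reported, 18 with at least 2 reads required in the library, 0.333 with entries 1 bp apart summed, 23.0 with HFD 1 and LFD 3 left out, and between -33.5 and 44.0 with each library left out. The differences in the shares of circles and of reads stayed below 0 under all alternatives run. Every p was 0.1 or more by the exact permutation test, which cannot give a smaller p with 3 mice per diet or fewer. Reads per circle of two-exon against single-exon circles turned to 0.596 without the 10 most read of each class. Those 10 are a larger part of the single-exon class, so the turn decides nothing about the main comparison. The number of two-exon circles called was 8 with edgeR (2.35% of all circRNAs tested), 2 with DESeq2 (0.539%), 1 with the edgeR exact test (0.588%), 14 with limma (3.63%) and 16 with reads required in at least 3 libraries (5.01%). It was 2 without HFD 1 and LFD 3 (1.25%), with 0 of the 8 among them. With each library left out it lay between 1 (without HFD 2, 1.18%) and 14 (without LFD 3, 2.83%), and was 2 without HFD 1 (1.3%, with 0 of the 8), 4 without HFD 3 (1.3%), 7 without LFD 1 (1.9%) and 2 without LFD 2 (1.16%). The split of calls by direction was not stable. It was 3 higher and 5 lower on the HFD as reported, 8 and 6 with limma, 10 and 6 with reads in at least 3 libraries, 2 and 12 without LFD 3, and 4 and 4 with no filter on low counts. The number of host entries called was 9 as reported (2.28% of all entries), 4 with DESeq2 (1.4%), 5 without HFD 1 and LFD 3 (2.03%, with 0 of the 9), and between 3 (without HFD 2, 1.67%) and 15 (without LFD 1, 2.23%) with each library left out. No adjusted p of a two-exon circle fell under 0.05 in any of these fits, and 0 of the 12 most read circles was called in any.

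The replicate numbers are shared by the diets, and the titles do not say whether they pair the mice. Deviations of same-numbered libraries correlated at -0.0596, 0.114 and -0.0525, which cannot settle it with counts this low. Among all pairs of an HFD and an LFD library, the highest correlation was 0.21, for HFD 1 with LFD 3, and the lowest was -0.169, for HFD 2 with LFD 3. With the replicate block, 0 two-exon circles (0.49% of all circRNAs tested) and 3 host entries (0.872% of all) were called. The two-exon circles tested had a median of 6.0 reads over all 6 libraries, which limits the precision of each value.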
